A study of Mus musculus with 12 samples.

Results

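Condensin and cohesin are ring-shaped complexes that fold and hold chromosomes, and the RNA of their subunits was followed in mouse mammary fibroblasts after doxorubicin or hydrogen peroxide. The subunits were chosen by gene symbol. They comprise 6 condensin genes (Smc2, Smc4, Ncaph, Ncapg, Ncapd2 and Ncapd3) and 4 cohesin genes (Smc1a, Smc3, Rad21 and Stag2), 10 of the 55487 genes in the deposited table. All 10 passed the filter on low values, which kept 13280 genes with at least 1 CPM (counts per 1000000 reads assigned to genes) in at least 3 of 12 libraries.

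The cells were 1 primary line of fibroblasts, grown from mammary fat pad tissue that was taken from a healthy mouse of the B6 strain. Doxorubicin, a topoisomerase II poison that breaks DNA, was given at 100 nM for 24 h, with media refreshed every 3 days, and these cells were lysed on day 7 (3 libraries). Their water vehicle cells were also lysed on day 7 (3 libraries). Hydrogen peroxide, an oxidant, was given at 750 uM for 2 h and followed by 48 h of recovery, in 3 exposures in all, with lysis on day 6 (3 libraries). Its own water vehicle cells were lysed on day 6 (3 libraries). Both vehicle groups were split as they grew, per the labels, so treated and vehicle cells differed in passaging as well as in agent. The labels do not say whether the replicates were separate cultures, and p-values therefore speak for the scatter among the deposited libraries alone.

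Condensin compacts chromosomes as cells enter mitosis. Its ATPase core, Smc2 with Smc4, is shared by condensin I, which adds Ncaph, Ncapg and Ncapd2, and by condensin II, which adds Ncaph2, Ncapg2 and Ncapd3. Cohesin, built from Smc1a, Smc3, Rad21 and either Stag1 or Stag2, holds sister chromatids together after replication. It also forms chromatin loops in interphase, so cells that do not divide use it too.

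The libraries held an estimated 21.5 to 37.6 M reads (1 M is 1000000 reads) in the doxorubicin group, 19.5 to 21.9 M in its vehicle group, 21.4 to 32.4 M in the peroxide group and 17.3 to 20.99 M in its vehicle group. Fibroblast markers (6 genes, with Fn1, Col1a1 and Col1a2 as the most abundant) summed to 10901 to 14999 CPM after doxorubicin, against 7042 to 7826 CPM in its vehicle, and to 10031 to 11340 CPM after peroxide, against 7147 to 8743 CPM in its vehicle. Vim, also of this list, went the other way after peroxide (826 ± 58 CPM, against 1455 ± 545 CPM, with no overlap). Epithelial markers (6 genes) stayed at or below 1.16 CPM and endothelial markers (4 genes) at or below 1.56 CPM in every library. Leukocyte markers (6 genes) summed to 15.2 to 19.2 CPM after doxorubicin, against 3.60 to 9.08 CPM in its vehicle, and to 14.3 to 19.1 CPM after peroxide, against 2.57 to 3.93 CPM in its vehicle, mostly from Lyz2 and Cd68. Ptprc, the leukocyte gene of this list that defines the lineage, did not exceed 0.0927 CPM. Adipocyte markers (4 genes) summed to 3.86 to 5.26 CPM after doxorubicin, against 1.28 to 2.00 CPM in its vehicle, and to 1.45 to 2.81 CPM after peroxide, against 0.341 to 0.694 CPM in its vehicle, and the 1 of them that was tested was called higher in both. The part of these markers in the results was not tested. On the second principal component of all tested genes (23.7% of the variance) peroxide replicate 2, doxorubicin vehicle replicate 3 and doxorubicin replicate 1 stood apart from their groups, and counts of called subunits and listed genes without these 3 libraries are given where they differ.

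Promoter sequence, 250 bases before to 50 bases after the start site, was found for 7 of the 10 genes in a RefSeq table on GRCm38.p6: Smc2, Ncaph, Ncapg, Ncapd2, Ncapd3, Smc1a and Smc3. Smc4, Rad21 and Stag2 are named only. Words of 3 promoter elements were searched on both strands. The cell cycle homology region, an element of genes used in mitosis, was searched as TTTGAA and, as its variant form, TTCGAA. The CCAAT box, bound by NF-Y, was searched as CCAAT. E2F words were the sequence TTCCCGC, besides which the sequence TTCGCGC, further the sequence TTGCCGC and lastly the sequence TTGGCGC were taken. These 4 promoters are shown because they span what was found, from matches of several kinds to none. Each is written 5′ to 3′ on the strand of the gene, with every match in capitals.
Smc2, chr4:52438971-52439270, plus strand: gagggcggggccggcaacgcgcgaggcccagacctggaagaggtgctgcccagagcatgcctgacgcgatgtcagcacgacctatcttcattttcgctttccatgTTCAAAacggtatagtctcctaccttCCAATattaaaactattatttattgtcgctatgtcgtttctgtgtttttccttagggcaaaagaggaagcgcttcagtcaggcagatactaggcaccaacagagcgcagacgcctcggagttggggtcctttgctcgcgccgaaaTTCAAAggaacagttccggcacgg
Ncapg, chr5:45669675-45669974, plus strand: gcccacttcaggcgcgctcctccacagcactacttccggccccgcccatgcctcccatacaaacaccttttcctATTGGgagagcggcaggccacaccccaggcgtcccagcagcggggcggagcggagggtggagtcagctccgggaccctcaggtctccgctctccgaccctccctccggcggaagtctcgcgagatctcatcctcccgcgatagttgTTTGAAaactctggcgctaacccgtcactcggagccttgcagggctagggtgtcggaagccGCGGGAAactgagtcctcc
Ncapd2, chr6:125191537-125191836, minus strand: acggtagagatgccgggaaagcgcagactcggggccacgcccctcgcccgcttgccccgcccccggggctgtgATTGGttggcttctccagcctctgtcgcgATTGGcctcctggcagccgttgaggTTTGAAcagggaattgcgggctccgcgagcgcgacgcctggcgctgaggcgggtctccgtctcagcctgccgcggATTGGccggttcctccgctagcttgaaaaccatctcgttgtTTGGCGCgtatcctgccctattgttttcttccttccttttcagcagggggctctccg
Smc3, chr19:53600146-53600445, plus strand: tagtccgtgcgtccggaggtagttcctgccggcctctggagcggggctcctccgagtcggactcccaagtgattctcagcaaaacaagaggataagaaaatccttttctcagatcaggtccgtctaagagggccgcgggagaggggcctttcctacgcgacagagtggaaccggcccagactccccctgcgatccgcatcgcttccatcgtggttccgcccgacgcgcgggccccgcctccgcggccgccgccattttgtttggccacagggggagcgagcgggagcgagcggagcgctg

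Cell cycle homology words were in 3 of 5 condensin promoters (Smc2, Ncapg and Ncapd2) and in 0 of 2 cohesin promoters, against 19.2% of the 32851 promoters in the table. The Smc2 promoter held 2 of them, from -145 to -140 and from 26 to 31 relative to the start site, both of which are TTTGAA on the other strand and appear as TTCAAA in the strand printed above. In Ncapg the word lay from -30 to -25, and in Ncapd2 from -123 to -118. CCAAT was in 3 of 5 condensin promoters, with 3 copies in Ncapd2, and in 1 of 2 cohesin promoters (Smc1a), against 37.4% of all promoters. E2F words were in 4 of 5 condensin promoters (Ncaph, Ncapg, Ncapd2 and Ncapd3) and in 1 of 2 cohesin promoters (Smc1a), against 9.57% of all. The Smc3 window held none of the words, and 0 matches overlapped another. A match is a description of letters, not a site or a cause.

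All 10 subunit genes fell after doxorubicin, and 5 of the 6 condensin genes had a lower fold change than any of the 4 cohesin genes. Condensin RNA stood at 23.1 to 53.1% of the vehicle mean and cohesin RNA at 47.3 to 71.7%. The count of 10 of 10 lower compares with 27.8% of all 13280 tested genes called lower in the same limma fit (Benjamini-Hochberg adjusted p below 0.05), beside 22.1% called higher and 49.9% called in either direction. Treated libraries all lay below vehicle libraries for these 10 genes and for 33.6% of all tested genes. The median log2 fold change, on the log2(CPM + 1) scale, was -1.50 over the 6 condensin genes and -0.84 over the 4 cohesin genes, against -0.03 over all tested genes. In bulk RNA, fewer cells of a type and less RNA per cell cannot be told apart.

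Smc2 and Smc4 (chromosome 4, 52439243 to 52488260, and chromosome 3, 69004738 to 69034623, GRCm38) encode the ATPase pair of both condensins. Smc2 stood at 39.9, 34.0 and 38.6 CPM in doxorubicin libraries, against 105, 111 and 108 CPM in their vehicle libraries. Smc4 stood at 26.0, 32.3 and 30.4 CPM in doxorubicin libraries, against 74.8, 90.7 and 74.4 CPM in vehicle. Every treated library lay below every vehicle library for both genes. Their log2 fold changes were -1.51 ± 0.09 (SE, adjusted p = 1.46e-07) for Smc2 and -1.40 ± 0.13 (adjusted p = 6.94e-06) for Smc4.

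The condensin I subunits fell by similar or larger amounts. Ncaph, the kleisin that closes the ring (chromosome 2, 127103809 to 127133954, minus strand), had 29.2, 23.9 and 25.9 CPM after doxorubicin, against 76.0, 79.5 and 82.6 CPM in vehicle. Ncapd2, a HEAT-repeat subunit (chromosome 6, 125168007 to 125191701, minus strand), had 54.9, 56.8 and 58.9 CPM after doxorubicin, against 159, 163 and 164 CPM in vehicle. Neither gene's groups overlapped, and the log2 fold changes were -1.56 ± 0.08 for Ncaph (adjusted p = 7.02e-08) and -1.49 ± 0.08 for Ncapd2 (adjusted p = 8.29e-08). Ncapg, the other HEAT-repeat subunit (chromosome 5, 45669919 to 45700546), had 17.7, 15.0 and 18.4 CPM after doxorubicin, against 77.9, 80.6 and 62.9 CPM in vehicle. This was the deepest fall of the 10, at -2.05 ± 0.33 (adjusted p = 0.000413), and only 0.294% of tested genes had a lower value. Of 31-base windows in Ncapg exons 19.4% also occur in Lcorl, which overlaps it on the other strand, and 472 exon bases of Ncapd2 overlap Scarna10 and Gm28967, so reads of these genes may have been shared.

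Ncapd3, the condensin II subunit in the set (chromosome 9, 27030175 to 27095315), had 16.0, 17.1 and 17.5 CPM after doxorubicin, against 30.6, 33.1 and 31.5 CPM in vehicle. It fell least among the condensin genes, by 0.87 ± 0.09 on the log2 scale (adjusted p = 8.61e-06). The groups did not overlap.

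Among the cohesin genes, Smc1a and Rad21 fell most. Smc1a, an ATPase of the ring (chromosome X, 152016428 to 152062694), had 93.3, 81.5 and 90.8 CPM after doxorubicin, against 164, 169 and 180 CPM in vehicle. Rad21, the kleisin that separase cuts (chromosome 15, 51962240 to 51991747, minus strand), had 28.8, 27.4 and 28.5 CPM after doxorubicin, against 59.0, 60.5 and 59.4 CPM in vehicle. Treated and vehicle libraries were separate for both, with log2 fold changes of -0.94 ± 0.07 (adjusted p = 7.55e-07) for Smc1a and -1.05 ± 0.07 (adjusted p = 4.45e-07) for Rad21. Stag2, a HEAT-repeat subunit that binds Rad21 (chromosome X, 42149317 to 42277185), had 51.6, 39.8 and 46.3 CPM after doxorubicin, against 71.3, 78.5 and 82.6 CPM in vehicle. It fell by 0.75 ± 0.14 on the log2 scale (adjusted p = 0.000969), again with no overlap.

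Smc3, the partner of Smc1a (chromosome 19, 53600398 to 53645833), had 20.9, 39.5 and 31.9 CPM after doxorubicin, against 41.8, 45.9 and 41.0 CPM in vehicle. The treated libraries spread widely, replicate 1 being lowest, and the highest of them lay just under the lowest vehicle library. Its log2 fold change of -0.51 ± 0.19 had an adjusted p of 0.0446, close to the threshold. The call was lost in 16 of 24 alternatives (adjusted p 0.00414 to 0.371), and the value was -0.26 without doxorubicin replicate 1 (adjusted p = 0.140). The call was also lost without doxorubicin replicate 3, any vehicle replicate of that experiment, peroxide replicate 1 or 3, or peroxide vehicle replicate 2 or 3 (adjusted p 0.0542 to 0.117). Without the 3 libraries that stood apart, 9 of 10 genes were called, Smc3 being the exception at -0.30 (adjusted p = 0.105).

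**Figure D1:**
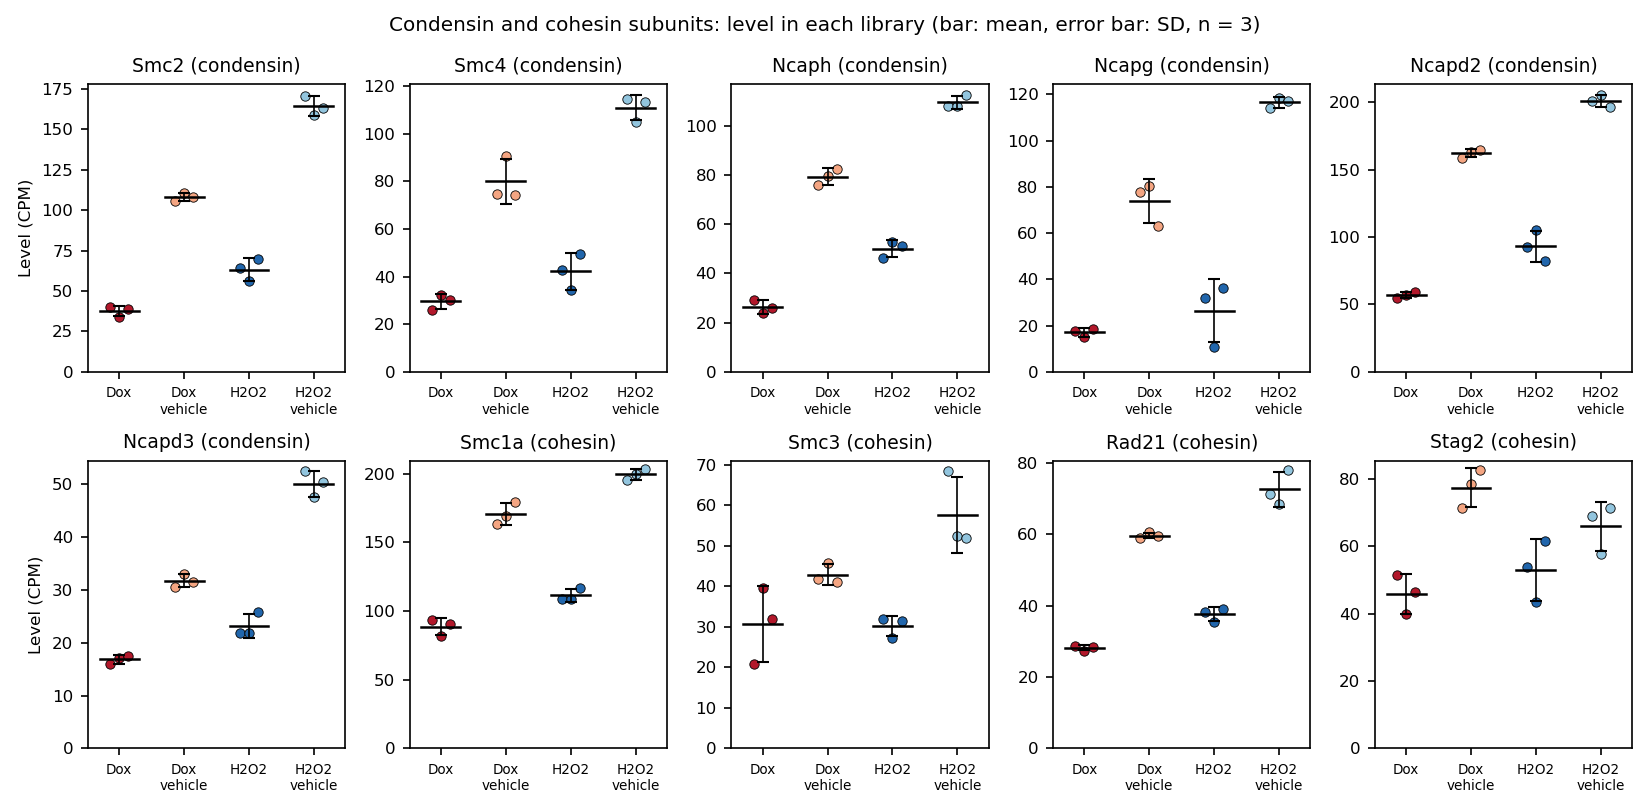
Level in CPM (linear axis from 0) of each subunit gene in the 12 libraries, with points for libraries, a bar for the mean and an error bar for the SD (n = 3). For 9 of 10 genes both treated groups lie below their vehicle groups without overlap, and Stag2 after peroxide (43.3 to 61.5 CPM) overlaps its vehicle (57.7 to 71.3 CPM).

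After peroxide 9 of 10 genes fell, all 6 condensin genes and 3 of the 4 cohesin genes, Stag2 being the exception. Condensin RNA stood at 22.6 to 46.3% of the vehicle mean, and cohesin RNA at 51.7 to 80.3%. Of all tested genes 23.4% were called lower and 50.7% in either direction. Treated libraries lay below vehicle libraries without overlap for 9 of 10 subunits and for 29.3% of all tested genes. The median log2 fold change was -1.24 over the condensin genes and -0.87 over the cohesin genes, against -0.01 over all tested genes.

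The core pair, Smc2 and Smc4, fell to 38.5% and 38.0% of the vehicle mean. Smc2 had 64.0, 56.0 and 70.0 CPM in peroxide libraries, against 171, 159 and 163 CPM in their vehicle, a log2 fold change of -1.37 ± 0.09 (adjusted p = 3.29e-07). Smc4 had 42.8, 34.2 and 49.7 CPM in peroxide libraries, against 115, 105 and 113 CPM in vehicle, a log2 fold change of -1.39 ± 0.13 (adjusted p = 7.01e-06). No treated library reached a vehicle library.

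Ncaph and Ncapd2 fell to 45.7% and 46.3% of the vehicle mean. Ncaph had 46.3, 52.8 and 51.1 CPM after peroxide, against 108, 108 and 112 CPM in vehicle, or -1.12 ± 0.08 on the log2 scale (adjusted p = 9.75e-07). Ncapd2 had 92.3, 105 and 82.0 CPM after peroxide, against 201, 206 and 197 CPM in vehicle, or -1.11 ± 0.08 (adjusted p = 8.59e-07). The groups were separate for both genes. Ncapd3 had 21.9, 21.9 and 25.8 CPM after peroxide, against 52.4, 47.5 and 50.4 CPM in vehicle, or -1.08 ± 0.09 (adjusted p = 1.47e-06), which placed the condensin II subunit level with these condensin I subunits.

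Ncapg again had the lowest fold change of the set. It had 32.2, 10.8 and 36.1 CPM after peroxide, against 114, 119 and 117 CPM in vehicle. Replicate 2 had less than 50% of either other treated library, and the same library was low for Plk1, a mitotic kinase (3.61 CPM, against 33.3 and 40.2 CPM in the other peroxide libraries) and for Aurkb (15.8 CPM, against 29.8 and 32.9 CPM). The log2 fold change of Ncapg was -2.27 ± 0.33 (adjusted p = 0.000180), and without that library it was -1.75 ± 0.12 (adjusted p = 9.55e-07).

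Of the cohesin genes, Smc1a had 109, 109 and 117 CPM after peroxide, against 196, 200 and 203 CPM in vehicle (log2 fold change -0.83 ± 0.07, adjusted p = 1.85e-06). Rad21 had 38.2, 35.3 and 39.1 CPM after peroxide, against 71.2, 68.5 and 78.0 CPM in vehicle (-0.93 ± 0.07, adjusted p = 1.08e-06). Smc3 had 31.9, 27.3 and 31.4 CPM after peroxide, against 68.6, 52.4 and 51.9 CPM in vehicle (-0.90 ± 0.19, adjusted p = 0.00229). For these 3 genes the treated libraries were all below the vehicle libraries.

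Stag2 was the gene that did not pass the test. It had 53.9, 43.3 and 61.5 CPM after peroxide, against 68.9, 57.7 and 71.3 CPM in vehicle, and the groups overlapped. Its log2 fold change was -0.32 ± 0.14 (95% confidence interval -0.62 to -0.02, adjusted p = 0.0733). The alternatives gave adjusted p of 0.0258 to 0.515. It passed the threshold without peroxide replicate 3 (-0.43, adjusted p = 0.0258) and without peroxide vehicle replicate 2 (-0.41, adjusted p = 0.0469). Without peroxide replicate 2 it was nearer to 0 (-0.19, adjusted p = 0.253), and it turned to 0.10 under upper quartile scaling (adjusted p = 0.515).

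**Figure D2:**
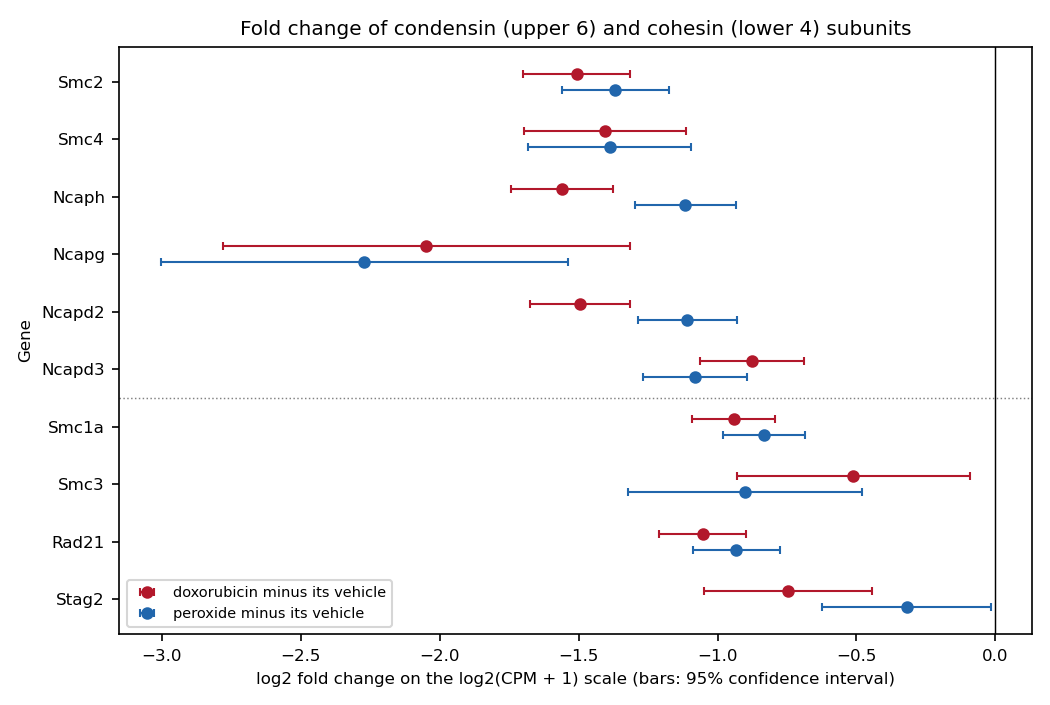
Log2 fold change of each gene on the log2(CPM + 1) scale after doxorubicin (red) and peroxide (blue), each against its own vehicle, with 95% confidence intervals from the limma fit. Ncapg lies farthest to the left in both (-2.05 and -2.27), and Stag2 after peroxide (-0.32) lies nearest to 0.

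The sum of condensin RNA lay further below vehicle than the sum of cohesin RNA in both experiments. Condensin genes summed to 184 ± 5 CPM after doxorubicin, against 535 ± 20 CPM in its vehicle, and cohesin genes to 193 ± 5 CPM after doxorubicin, against 351 ± 14 CPM (SD, n = 3 each). After peroxide condensin genes summed to 298 ± 17 CPM, against 753 ± 9 CPM in vehicle, and cohesin genes to 232 ± 17 CPM, against 396 ± 15 CPM in vehicle. The mean log2 level of condensin minus that of cohesin was -0.55, -0.66 and -0.60 in doxorubicin libraries, against 0.09, 0.11 and -0.00 in their vehicle libraries. In peroxide libraries this difference was -0.20, -0.31 and -0.16, against 0.37, 0.49 and 0.40 in vehicle libraries. It was thus lower in every treated library than in every vehicle library of its experiment. These differences describe the 10 chosen genes and carry no test.

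**Figure D3:**
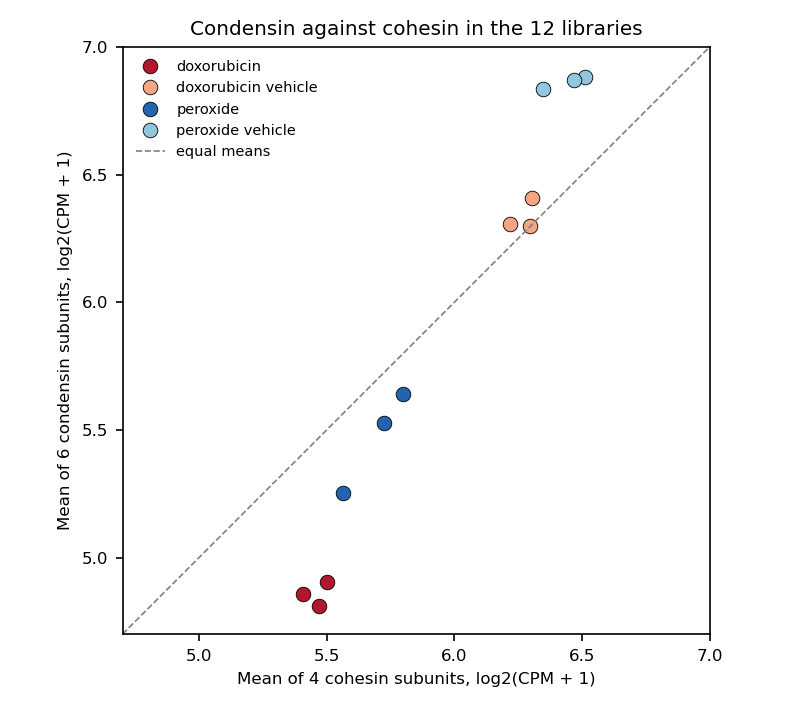
Mean log2(CPM + 1) of the 6 condensin genes (vertical) against that of the 4 cohesin genes (horizontal) in each of the 12 libraries, with a dashed line where both are equal. Treated libraries lie below the line (differences of -0.66 to -0.16), and vehicle libraries lie on or above it (-0.00 to 0.49). Levels here are not divided by transcript length, so the line does not mark equal abundance of the complexes. Only shifts between treated and vehicle libraries can be read from it.

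Markers of cycling cells moved with the subunits. The 8 cycling genes (Mki67, Top2a, Cdk1, Ccnb1, Pcna, Mcm2, Mcm3 and Mcm5) summed to 486 to 519 CPM after doxorubicin, against 1335 to 1371 CPM in its vehicle. Of them 7 of 8 were called lower, beside 27.8% of all tested genes. They summed to 764 to 787 CPM after peroxide, against 2087 to 2267 CPM in its vehicle. There 8 of 8 were called lower, beside 23.4% of all tested genes. Their part in the fall of condensin and cohesin RNA was not tested.

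Whether the treatments differed in effect was asked by the interaction of treatment and experiment, each treatment against its own vehicle. The effect of doxorubicin was the more negative for 2 of 10 genes, Ncaph and Ncapd2, against 20.1% of all tested genes called in that direction. The difference was -0.44 ± 0.12 for Ncaph (adjusted p = 0.0160) and -0.39 ± 0.12 for Ncapd2 (adjusted p = 0.0263), both condensin I subunits. The remaining 8 differences did not pass. Their 95% intervals were widest for Ncapg (-0.81 to 1.26), Smc3 (-0.20 to 0.99) and Stag2 (-0.86 to -0.00), and narrowest for Smc1a (-0.32 to 0.10) and Rad21 (-0.34 to 0.10). Under upper quartile scaling 3 of 10 were called, Stag2 (-0.54, adjusted p = 0.0324) besides Ncaph and Ncapd2. There 23.4% of all tested genes were called lower and 11.1% higher. Median-of-ratios scaling left 0 of 10 called (Ncaph adjusted p = 0.0517, Ncapd2 adjusted p = 0.0801), beside 15% of all tested genes called lower and 15.8% higher. Over all alternatives adjusted p ran from 0.00314 to 0.0517 for Ncaph and from 0.00591 to 0.0801 for Ncapd2. Ncapd2 also lost its call without doxorubicin vehicle replicate 2 or 3 or peroxide vehicle replicate 1 or 3 (adjusted p 0.0515 to 0.0588), and the difference of Smc3 passed without doxorubicin replicate 1 (0.64, adjusted p = 0.0231) and that of Stag2 without peroxide replicate 2 (-0.56, adjusted p = 0.0288). Without the 3 libraries that stood apart 4 of 10 were called, Ncaph (-0.45), Ncapg (-0.44), Stag2 (-0.60) and, in the other direction, Smc3 (0.54). Ncapd2 was not called (adjusted p = 0.0569). In that setting 21.3% of all tested genes were called lower and 18.2% higher.

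The vehicle groups themselves differed, which shows the range in untreated cells. On day 7 (doxorubicin vehicle) 7 of 10 genes were lower than on day 6 (peroxide vehicle), 5 condensin genes and the cohesin genes Smc1a and Rad21, against 12.9% of all tested genes called lower and 28.0% called in either direction. The difference was -0.60 ± 0.09 for Smc2 (adjusted p = 0.000580) and -0.64 ± 0.09 for Ncapd3 (adjusted p = 0.000316), and -0.22 to -0.47 for the other 5. Ncapg (-0.66, adjusted p = 0.162), Smc3 (-0.41, adjusted p = 0.136) and Stag2 (0.23, adjusted p = 0.232) did not pass. Day and experiment cannot be told apart here, and these libraries are the same that serve as controls above. Cycling markers summed to 1335 to 1371 CPM on day 7, against 2087 to 2267 CPM on day 6. Leaving out doxorubicin vehicle replicate 1 or peroxide vehicle replicate 3 left 4 of 10 called, and Ncapg was called without peroxide replicate 2 (adjusted p = 0.000901). Without the 3 libraries that stood apart 8 of 10 were called, Ncapg among them (-0.55, adjusted p = 0.00131). In that setting 15.6% of all tested genes were called lower and 16.5% higher.

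Levels of different genes were compared per length, as CPM per kb of the longest coding transcript. In doxorubicin cells Smc1a stood highest, at 18.9 ± 1.3 CPM per kb (SD, n = 3), followed by Ncapd2 at 12.3 ± 0.4 and Ncaph at 9.77 ± 1.01 CPM per kb. Stag2 (7.44 ± 0.95), Rad21 (7.13 ± 0.19), Smc2 (6.94 ± 0.57), Smc4 (6.85 ± 0.74) and Smc3 (6.34 ± 1.94) lay within each other's spread. Ncapg (4.60 ± 0.48), whose libraries overlapped those of Smc3, and Ncapd3 (3.07 ± 0.15) were lowest. In the doxorubicin vehicle Smc1a (36.4 ± 1.7) and Ncapd2 (35.0 ± 0.6) lay within their spread of each other, ahead of Ncaph (29.4 ± 1.2). Smc2 (20.0 ± 0.5), Ncapg (19.9 ± 2.6) and Smc4 (18.5 ± 2.1) formed the next group, followed by Rad21 (15.1 ± 0.2), Stag2 (12.5 ± 0.9), Smc3 (8.84 ± 0.54) and Ncapd3 (5.77 ± 0.23).

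The order in the peroxide experiment was as follows. In peroxide cells Smc1a led at 23.8 ± 1.0 CPM per kb, then Ncapd2 at 20.1 ± 2.5 and Ncaph at 18.6 ± 1.3, which overlapped, then Smc2 at 11.7 ± 1.3, Smc4 at 9.78 ± 1.79 and Rad21 at 9.49 ± 0.50. The libraries of Smc4 overlapped those of both Smc2 and Rad21, which were separate from each other. Stag2 (8.58 ± 1.48), Ncapg (7.11 ± 3.68) and Smc3 (6.23 ± 0.52) followed, and Ncapd3 (4.22 ± 0.41) was last. Stag2 overlapped Smc4 and Rad21, and the wide range of Ncapg (2.90 to 9.75) overlapped Smc4, Rad21, Stag2, Smc3 and Ncapd3. In the peroxide vehicle Ncapd2 (43.4 ± 1.0), Smc1a (42.5 ± 0.8) and Ncaph (40.6 ± 0.9) led, Ncapd2 and Smc1a lying within their spread. Ncapg (31.5 ± 0.6) and Smc2 (30.4 ± 1.1) came next, within their spread of each other, then Smc4 (25.7 ± 1.2), Rad21 (18.3 ± 1.2), Smc3 (11.9 ± 2.0), Stag2 (10.7 ± 1.2) and Ncapd3 (9.11 ± 0.45), of which Stag2 overlapped both Smc3 and Ncapd3. By mean, Ncapg was thus above Rad21 and Stag2 in both vehicle groups and below both in both treated groups. With the length of all exons in place of the longest coding transcript, Ncapg lay below Rad21 in every group (10.4 against 14.1 CPM per kb in the doxorubicin vehicle and 16.5 against 17.1 in the peroxide vehicle). Ncaph then lay below Smc2 after doxorubicin (6.11 against 6.85), in its vehicle (18.4 against 19.8) and in the peroxide vehicle (25.4 against 30.0). Smc1a then stood above Ncapd2 in the peroxide vehicle (34.6 against 32.1). Places in the order thus depend on the length used.

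**Figure D4:**
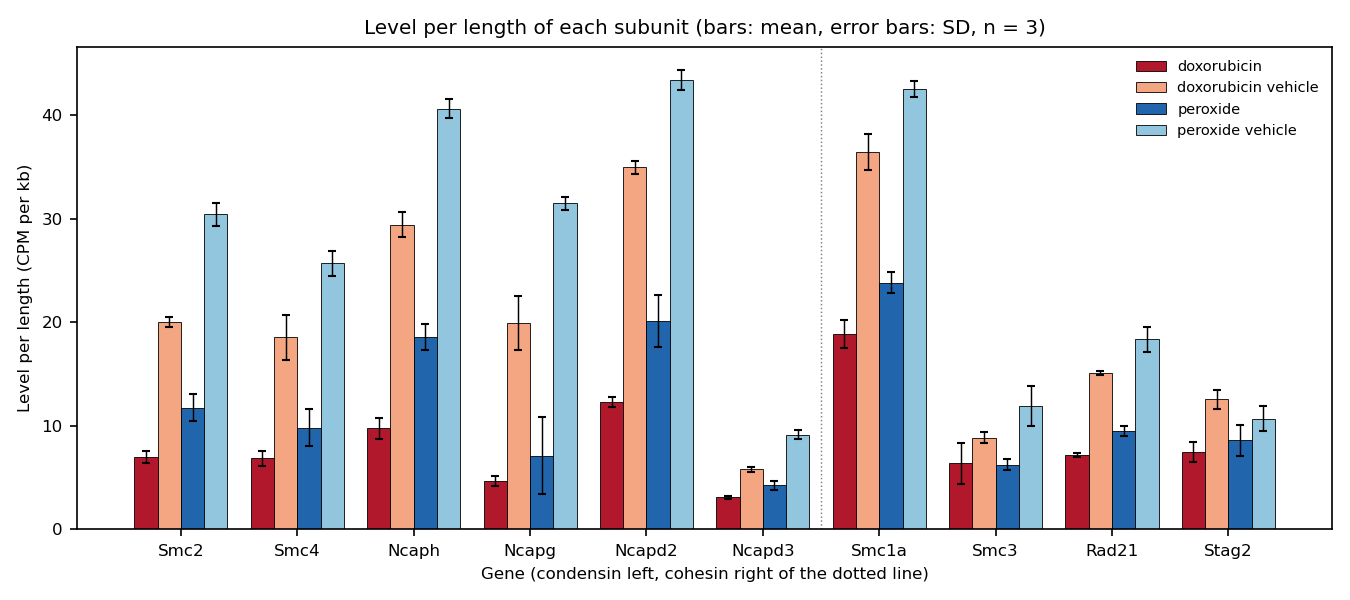
Level per length (CPM per kb of the longest coding transcript, axis from 0) of each subunit in the 4 groups, as mean bars with SD (n = 3). Smc1a is the highest bar in both treated groups (18.9 and 23.8), while Ncapd2 (43.4) and Smc1a (42.5) lead in the peroxide vehicle.

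Genes most like each complex were ranked by the root mean square difference between centred log2 profiles over the 12 libraries, among 11789 genes. The profile of condensin (mean of its 6 genes) was most like that of Mpp6 (0.0879), Hmmr (0.0952), Usp1 (0.101), Dbf4 (0.102) and Cenpi (0.104), against a median of 0.823. Hmmr encodes a spindle protein, Dbf4 the activator of the kinase that fires replication origins, and Cenpi a centromere protein. The profile of cohesin (mean of its 4 genes) was most like that of Zfp367 (0.0565), Stag1 (0.0672), Nudcd1 (0.0758), Thoc1 (0.0786) and Hnrnph1 (0.0831), against a median of 0.492. Stag1 is itself a cohesin subunit. The subunits lay at unlike distances from the mean profile of which they are part. For condensin these ran from 0.0675 (Smc2) to 0.480 (Ncapg), and for cohesin from 0.102 (Smc1a) to 0.223 (Smc3). The condensin gene Ncapd3 lay nearer to the cohesin profile (0.210) than to that of condensin (0.250).

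Among 37 other genes of condensation and cohesion 34 passed the filter. Of these 23 fell and 1 rose after doxorubicin, and 23 fell and 4 rose after peroxide (27.8% and 23.4% of all tested genes called lower). Without the 3 libraries that stood apart 22 fell and 3 rose after peroxide, where 25.4% of all tested genes were called lower and 28.6% higher. The medians were -0.56 after doxorubicin and -0.67 after peroxide. Condensin II has 2 subunits outside the set, and their values are given side by side. Ncapg2 had 14.1, 12.1 and 11.8 CPM after doxorubicin, against 41.7, 44.3 and 40.1 CPM in vehicle (log2 fold change -1.66, adjusted p = 3.75e-07), and fell by 1.52 after peroxide (adjusted p = 7.15e-07). Ncaph2 had 109, 138 and 124 CPM after doxorubicin, against 155, 155 and 143 CPM in vehicle, and did not pass (-0.29, adjusted p = 0.0981). It was called lower after peroxide (-0.39, adjusted p = 0.0348), a call lost in 8 alternatives, with peroxide replicate 1 or 3 or any peroxide vehicle replicate left out among them (adjusted p up to 0.879 over all alternatives). Its windows are shared with overlapping genes at 41.0%.

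Of the other cohesin core genes Stag1, the alternative to Stag2, fell by 0.84 after doxorubicin (adjusted p = 3.35e-05) and by 0.71 after peroxide (adjusted p = 0.000107). It had 28.4, 28.2 and 28.2 CPM after doxorubicin, against 49.0, 53.7 and 51.7 CPM in vehicle. The meiotic genes Smc1b, Rec8 and Rad21l did not exceed 0.701 CPM in any library and were not tested. Stag3, also meiotic, had 1.13, 1.54 and 1.40 CPM after peroxide, against 0.796, 0.667 and 0.925 CPM in vehicle, and was called higher (0.39, adjusted p = 0.0183). This call was lost with no filter, without peroxide replicate 2, without peroxide vehicle replicate 2 and without the 3 libraries that stood apart (adjusted p up to 0.0831). After doxorubicin Stag3 stood at -0.02 (adjusted p = 0.906).

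Genes that load and release cohesin had median log2 fold changes of -0.27 after doxorubicin and 0.06 after peroxide. After doxorubicin 4 of 6 fell and 0 rose, against 27.8% of all tested genes called lower and 22.1% higher. The largest change was that of Pds5a (-0.62, adjusted p = 0.00111), which regulates release. The loader gene Nipbl changed by -0.26 (adjusted p = 0.0203), a call lost without doxorubicin replicate 1 or its vehicle replicate 2 or 3 (adjusted p up to 0.735 over all alternatives). These counts depend on scaling, with 2 of 6 lower under median-of-ratios and 1 of 6 under upper quartile scaling (23.7% and 12% of all tested genes). Without the 3 libraries that stood apart 2 of 6 were lower (28.4% of all tested genes), Nipbl and Pds5b losing their calls. After peroxide Pds5a fell by 0.42 (adjusted p = 0.0110), and Pds5b by 0.32 (adjusted p = 0.0196), the second call being lost without peroxide replicate 1 or 2, peroxide vehicle replicate 1 or the 3 libraries that stood apart. In contrast the loader subunit gene Mau2 rose by 0.52 (adjusted p = 0.00352) and Hdac8, the Smc3 deacetylase gene, rose by 0.83 (adjusted p = 0.000283). Under upper quartile scaling 4 of 6 were higher and 0 lower after peroxide, where 49.1% of all tested genes were called higher and 9.4% lower. Hdac8 had 14.8, 14.4 and 15.0 CPM after doxorubicin, against 15.6, 15.2 and 16.1 CPM in vehicle, and 20.8, 17.4 and 17.8 CPM after peroxide, against 7.85, 11.3 and 11.3 CPM in vehicle. The difference between its effects was -0.91 ± 0.18 (adjusted p = 0.00445). The vehicle groups of Hdac8 themselves differed by 0.59 (day 7 minus day 6, adjusted p = 0.00603).

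Genes that establish, protect or cut cohesion included the deepest fall of the listed genes after doxorubicin, that of Esco2. Esco2, the acetyltransferase that locks cohesin on replicated DNA, had 4.05, 4.76 and 5.28 CPM after doxorubicin, against 26.0, 29.3 and 28.1 CPM in vehicle (-2.34, adjusted p = 9.66e-08), and fell by 1.59 after peroxide (adjusted p = 2.01e-06). Sgo1, which protects centromeric cohesin, fell by 2.00 after doxorubicin (adjusted p = 1.05e-08) and by 1.84 after peroxide (adjusted p = 2.61e-08). In all 5 of 7 fell and 1 rose in each experiment, and the counts were 5 and 1 under both other scalings too. Of all tested genes 27.8% were called lower and 22.1% higher after doxorubicin, and 23.4% lower and 27.3% higher after peroxide. Under upper quartile scaling these shares were 12% and 37.6% after doxorubicin, and 9.4% and 49.1% after peroxide. The gene that rose was Pttg1, which encodes securin, the inhibitor of separase (0.42 after doxorubicin, adjusted p = 0.00272; 0.73 after peroxide, adjusted p = 5.57e-05). Espl1, the separase gene, had 1.68, 4.65 and 3.66 CPM after doxorubicin, against 3.85, 4.10 and 2.82 CPM in vehicle, and 1.85, 1.27 and 2.06 CPM after peroxide, against 18.9, 9.58 and 6.07 CPM in vehicle. The difference between its effects was 1.94 ± 0.50 (adjusted p = 0.0144), with vehicle groups that themselves differed by -1.33 (day 7 minus day 6, adjusted p = 0.0170, and 0.00337 to 0.0632 over the alternatives).

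Kinases that act on condensin and genes of the mitotic chromosome scaffold fell in 6 of 9 cases after doxorubicin and in 8 of 9 after peroxide, at each scaling. Of all tested genes 27.8% and 23.4% were called lower, and 12% and 9.4% under upper quartile scaling. Without the 3 libraries that stood apart 8 of 9 fell in each, Plk1 and Incenp becoming calls after doxorubicin. In that setting 28.4% of all tested genes were called lower after doxorubicin and 25.4% after peroxide. Cdk1, which phosphorylates condensin at mitotic entry, fell by 1.48 after doxorubicin (adjusted p = 2.84e-08) and by 1.23 after peroxide (adjusted p = 1.32e-07). Top2a, the topoisomerase of mitotic chromosomes, fell by 1.82 after doxorubicin and by 1.17 after peroxide, and this difference passed (-0.65 ± 0.13, adjusted p = 0.00472). Incenp, of the Aurkb complex, differed in the other direction (1.19 ± 0.28, adjusted p = 0.00984), at -0.44 after doxorubicin (adjusted p = 0.0884) and falling by 1.62 after peroxide (adjusted p = 4.68e-05). Its vehicle groups differed too (day 7 minus day 6, -1.11, adjusted p = 0.00189), as did those of Top2a (-0.54, adjusted p = 0.00144). Plk1 had the lowest fold change of the listed genes after peroxide (-3.09 ± 0.68, adjusted p = 0.00290, and -3.66 to -2.08 over the alternatives). Its peroxide replicate 2 was low, at 3.61 CPM against 40.2 and 33.3 CPM in the other peroxide libraries. After doxorubicin Plk1 stood at -1.10 (adjusted p = 0.198). Aurkb fell by 1.36 after doxorubicin (adjusted p = 0.00177) and by 2.11 after peroxide (adjusted p = 7.28e-05). The differences for Plk1 (1.99, adjusted p = 0.130) and Aurkb (0.75, adjusted p = 0.152) did not pass, and that of Plk1 did without the 3 libraries. Kif4, a chromokinesin gene that interacts with condensin, fell by 1.40 after doxorubicin (adjusted p = 3.90e-07) and by 1.43 after peroxide (adjusted p = 3.29e-07).

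The related SMC5/6 complex, which acts in DNA repair, was listed together with Smchd1. In this list 5 of 7 fell after doxorubicin and 4 of 7 after peroxide, against 27.8% and 23.4% of all tested genes called lower. Under upper quartile scaling 1 of 7 fell in each and 2 rose after peroxide. Under that scaling 12% of all tested genes were called lower after doxorubicin, and 9.4% lower and 49.1% higher after peroxide. Smc5 fell by 0.49 after doxorubicin (adjusted p = 0.0338) and by 0.72 after peroxide (adjusted p = 0.00485), and Smc6 fell by 1.05 after peroxide (adjusted p = 0.000634) and stood at -0.36 after doxorubicin (adjusted p = 0.122). The Smc5 call after doxorubicin was lost without any doxorubicin replicate or vehicle replicate 1 or 2. Ctcf, the protein at which cohesin loops stop, fell by 0.64 after doxorubicin (adjusted p = 0.000255) and by 0.63 after peroxide (adjusted p = 0.000248), the second call being lost under upper quartile scaling.

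**Figure D5:**
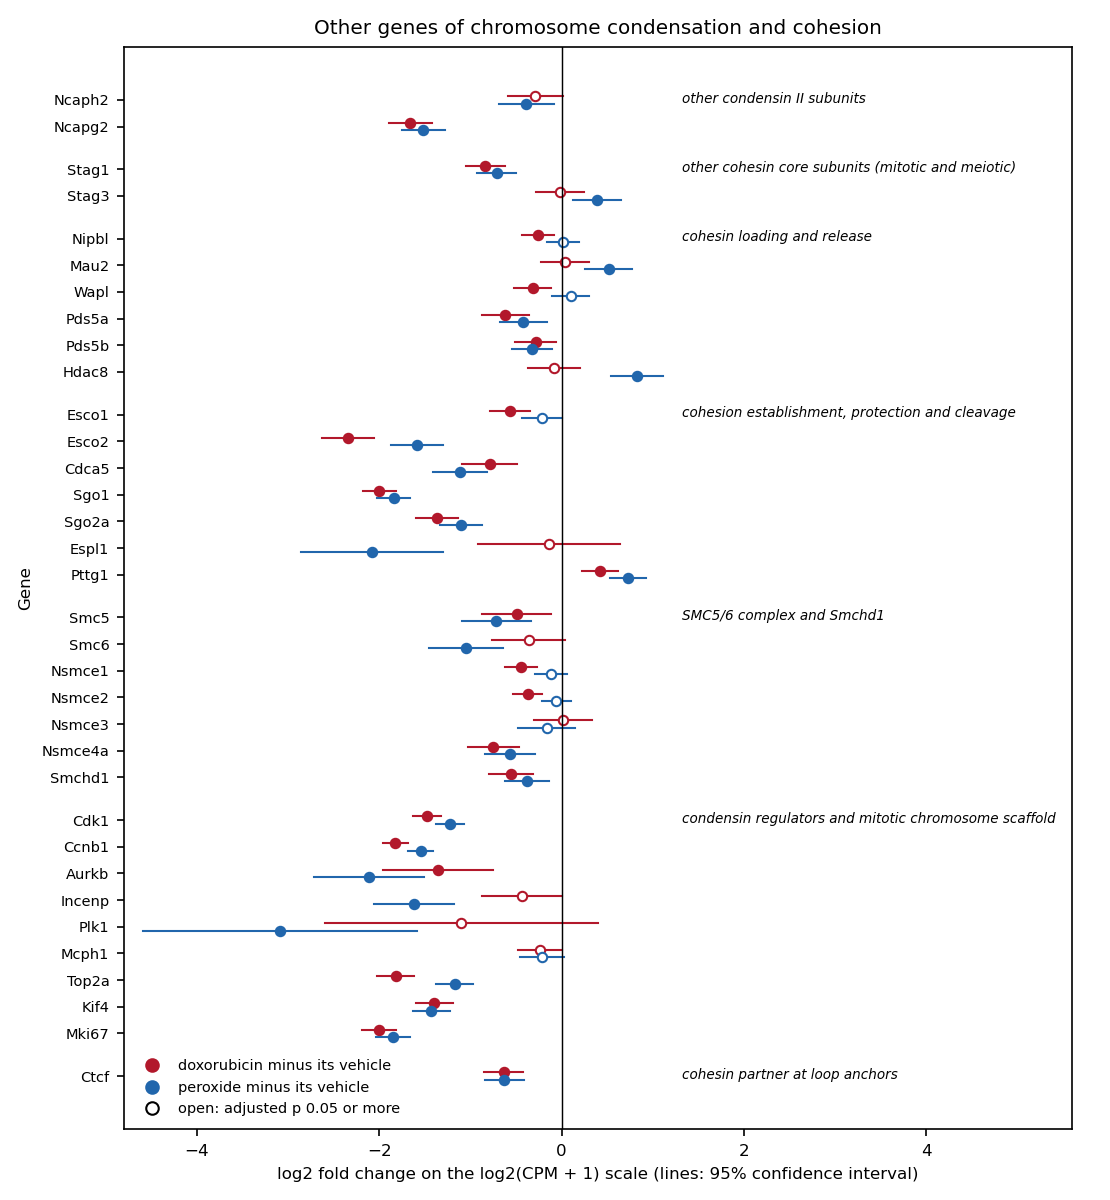
Log2 fold change on the log2(CPM + 1) scale of the 34 other tested genes after doxorubicin (red) and peroxide (blue), grouped by role, with 95% confidence intervals and open circles where the adjusted p was 0.05 or more. Esco2 and Sgo1 lie far to the left in both (-2.34 and -2.00 after doxorubicin), and Pttg1 lies to the right (0.42 and 0.73).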

How the data were processed

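RNA of 12 libraries in 4 groups of 3 was sequenced on a NovaSeq instrument, per the labels. The authors deposited a single table of CPM (counts per 1000000 reads assigned to genes), whose columns were matched to samples by name. Tools named by the submitters' processing notes are bcl2fastq and DRAGEN, with mm10 as the build. How reads were counted, and whether by strand, is not given in the sources used here. Among 55774 lines of the table, 287 that repeated an identifier with identical values were dropped, leaving 55487 genes. Of the identifiers 99.4% were in GENCODE M21, which gave positions, lengths and shared 31-base windows.

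Of values up to 20 reads 74.7 to 79.8% were whole reads (tolerance 0.001 read), so counts were estimates and no count test was run. Depth, 17.3 to 37.6 M reads, was read from the CPM step of 1 read. A floor of 3 reads was 0.0798 to 0.173 CPM per library and speaks for counting error alone.

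The 13280 genes that reached 1 CPM in 3 or more libraries were tested on log2(CPM + 1), which understates changes of low genes, with limma 3.58.1 in R 4.3.3 (4 group means, mean-variance trend, 8 residual degrees of freedom, prior median 3.07, two-sided). P-values were adjusted by Benjamini-Hochberg over all tested genes of a comparison, with a threshold of 0.05. Each treatment was set against its vehicle, the effects against each other, and the vehicle groups against each other. The fit was tested on simulated counts, with known changes in a small set of genes of the doxorubicin group. That test cannot speak for shifts from scaling or for libraries that stood apart, since the simulation held neither. All 10 subunits are named throughout. Other genes come from fixed lists with up to 4 examples each, or from the 5 profiles most like each complex. The list of cohesin loading and release has 5 named genes, which exceeds that rule. Incenp, Plk1, Aurkb and Stag3 were named after their values were seen. Members and lists were chosen with earlier results of these data known. Alternatives covered pseudocounts of 0.1 and 2, no filter and 5 CPM, 2 other scalings, 2 variance models, separate fits, a replicate block, leaving out libraries and a threshold of 0.01. Promoters came from RefSeq on GRCm38.p6. Tables and figures used Python 3.11.15, pandas 2.3.3, numpy 2.4.6 and matplotlib 3.10.9.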

Additional observations from a re-analysis of the deposited data

Results flagged for a closer look

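The effect of doxorubicin differed from that of peroxide, by a test of the difference itself in the limma fit, for 2 of 10 subunits in the same direction, which is near the 20.1% of all tested genes called in that direction. Ncaph fell further after doxorubicin, the difference of log2 fold changes being -0.44 (adjusted p = 0.0160), with all treated libraries of both experiments below their vehicles. For Ncapd2 the difference was -0.39 (adjusted p = 0.0263), also with every treated library below its vehicle. Under median-of-ratios scaling neither difference passed (adjusted p = 0.0517 for Ncaph and 0.0801 for Ncapd2), and that of Ncapd2 was lost in 8 of 23 alternatives.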

How the results depend on the processing

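The 24 alternatives per treatment comparison (23 for the other comparisons, which separate fits cannot give) left 9 genes of the doxorubicin comparison and 9 of the peroxide comparison with the direction and call given above, Smc3 and Stag2 being the exceptions. Of calls on single genes, 16 of 240 weakened after doxorubicin, all of Smc3. After peroxide 3 of 240 became calls and 1 reversed, all of Stag2, which stood at 0.10 under upper quartile scaling. Upper quartile scaling moved the median of all genes to 0.24 after doxorubicin and to 0.36 after peroxide, against -0.03 and -0.01, and raised the share of called genes that were higher to 75.9% and 83.9%, against 44.3% and 53.9%. Subunit changes under it are relative to that shift, and remained lower than vehicle except for Stag2 after peroxide. The upper quartile was taken over the genes above 0 CPM in each library. These numbered 21289 to 22771 in treated libraries, against 19080 to 19505 in vehicle libraries. The part of this in the shift was not tested. In the difference of effects, median-of-ratios scaling gave 51.1% of called genes as positive, against 40.3%. The cohesin mean after doxorubicin was -0.75 under median-of-ratios scaling, against -0.81.

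For the difference of effects the 2 called subunits became 1 with no filter, 0 under median-of-ratios scaling and 3 under upper quartile scaling. They became 4 with array weights, 4 without the 3 libraries that stood apart and 0 at a threshold of 0.01. At that threshold 1941 genes were called in place of 4461. With array weights 6525 of all 13280 tested genes were called. Without the 3 libraries 21.3% were called lower and 18.2% higher. Leaving out each library in turn gave 1 to 3. The difference of Smc4 was 0.049 under median-of-ratios scaling and ran from -0.16 to 0.11 when libraries were left out. That of Ncapg was -0.10 with array weights and -0.44 without the 3 libraries, and ran from -0.30 to 0.53 when single libraries were left out. For the vehicles the 7 called subunits became 4 under upper quartile scaling and 3 at a threshold of 0.01, and 4 to 8 when libraries were left out. Called genes were 5666 with array weights and 2042 at 0.01, in place of 3719. The cause was not tested.

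Replicate numbers are shared by the labels of the groups. Deviations of same-numbered libraries correlated at -0.31, 0.19 and -0.28 in the doxorubicin experiment. In the peroxide experiment they correlated at 0.14, 0.03 and -0.24. These values showed no pairing by number. They cannot exclude it, because each group holds few libraries and the correlations are not independent of each other. With the replicate block 10, 10, 2 and 7 subunits were called after doxorubicin, after peroxide, in the difference and between vehicles, and 5957, 6091, 3272 and 3286 genes. The call it changed after peroxide was that of Stag2 (adjusted p = 0.0481).

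The limits are 3 libraries per group of a single cell line, a table of estimated counts, and unstated counting of overlapping genes, which touches Ncapg and Ncapd2. Depth is not what limits the subunits, whose lowest value was 10.8 CPM against a floor of at most 0.173 CPM.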
